A study of Mus musculus with 12 samples.

Results

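miR-223, miR-142a, miR-150 and miR-342 are miRNAs of white blood cells, and they were followed here in small RNA of mitochondria isolated from mouse heart. The 7 rows were chosen by name as miRNAs of white blood cells: both arms of miR-223, miR-142a and miR-342, and the 5p arm of miR-150. All 7 were present among the 932 rows of the table, and all 7 passed the filter of a mean of at least 1 RPM (each library's reads brought to 1 common total, so that a level is a share of its miRNA reads). The 12 libraries came from 6 samples labelled WT and 6 labelled db/db. db/db mice carry a mutated leptin receptor gene in every cell of the body, and they become obese and diabetic. The labels give tissue, genotype and fraction, the last as mitochondrial miRNA; the sources used here give no age, sex, strain background, diet or drug. They number the samples of each genotype 1 to 6 without saying that each is a separate animal, so a p-value here covers only sample-to-sample spread, possibly technical.

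A miRNA is cut from a hairpin precursor, and either side of the stem, the 5p or the 3p arm, can be loaded into an Argonaute protein. It then pairs with messenger RNAs mainly through its seed, bases 2 to 8 from its 5′ end, and lowers their translation or stability. miR-223 is a miRNA of neutrophils, monocytes and platelets that restrains granulocyte production and inflammatory signalling. miR-142 is made in nearly all blood cell lineages and is widely used to mark them. miR-150 is abundant in mature B and T cells, where it limits the transcription factor Myb, and it has also been studied in heart muscle. miR-342 lies in a gene intron and is found in lymphocytes, myeloid cells and other tissues. A heart holds resident macrophages and blood left in its vessels, so these miRNAs are not foreign to cardiac tissue.

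RefSeq (GRCm38.p6) gave a mature sequence for 6 of the 7 members, miR-150-5p being the other. They are shown because the arms and seeds set apart the rows compared below, and the seed is in capitals.
mmu-miR-223-3p: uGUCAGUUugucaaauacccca
mmu-miR-223-5p: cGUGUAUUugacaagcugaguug
mmu-miR-142a-3p: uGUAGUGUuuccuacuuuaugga
mmu-miR-142a-5p: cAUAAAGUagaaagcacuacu
mmu-miR-342-3p: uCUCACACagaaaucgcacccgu
mmu-miR-342-5p: aGGGGUGCuaucugugauugag
The 6 seeds were all different. None of them was shared with another row among the 635 rows of the table for which RefSeq held a mature sequence, members included. The hairpin of Mir142 is shown because the balance of its arms differed most from library to library, with the 5p arm and then the 3p arm in capitals.
Mir142: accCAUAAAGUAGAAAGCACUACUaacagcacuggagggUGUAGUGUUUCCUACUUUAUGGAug

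Since the submitters' processing notes name GRCm39 as build, the places given here are those of the RefSeq sequences in GRCm38.p6 and do not carry over. The Mir223 hairpin lies at chrX:96242817-96242926 on the plus strand. In the GENCODE M21 annotation it overlaps an exon of the noncoding RNA F630028O10Rik on the same strand, and the nearest protein-coding gene, Vsig4, is 4.3 kb away. The Mir142 hairpin lies at chr11:87756864-87756927 on the plus strand, within an intron of the noncoding RNA Mir142hg, with Mir142b on the opposite strand and Tspoap1 3.6 kb away. The Mir342 hairpin lies at chr12:108658620-108658718 on the plus strand, within an intron of Evl, a gene of actin filament assembly.

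The libraries held 412749 to 1382046 reads, so 1 read was worth 0.724 to 2.42 RPM. Heart muscle miRNAs (miR-1a-3p, miR-133a-3p, miR-208a-3p and miR-499-5p) together made up 337987 to 439537 RPM, as the tissue label says, while the liver miRNA miR-122-5p was at 0 in 8 of 12 libraries. WT library 4 and db/db library 6 had the fewest reads, 551591 and 412749, and lay apart from the other libraries on the first 2 principal components. Values without them are given where leaving them out moves a result.

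The 7 members together held 0.348 to 0.536% of reads in WT libraries and 0.307 to 0.684% in db/db libraries, and the groups overlapped. miR-150-5p alone made up 76.2 to 86.8% of that sum in WT and 84.4 to 92.4% in db/db libraries. The sum therefore mainly follows miR-150-5p and cannot be read as a measure of white blood cells. The order by mean level over the 12 libraries, in RPM and with no length term, was miR-150-5p (3883), miR-223-3p (307), miR-342-3p (211), miR-142a-5p (51.5), miR-142a-3p (11.1), miR-223-5p (4.34) and miR-342-5p (4.27). The neighbours miR-223-3p and miR-342-3p overlapped in range across libraries, as did miR-142a-5p and miR-142a-3p, miR-142a-3p and miR-223-5p, and miR-223-5p and miR-342-5p. miR-150-5p ranked 40 of 932 rows by mean and miR-223-3p ranked 104, whereas the 2 arms of miR-142a ranked 188 and 294. Adapter ligation favours some miRNA ends over others, so levels of different miRNAs need not rank as their molecules do.

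**Figure D1:**
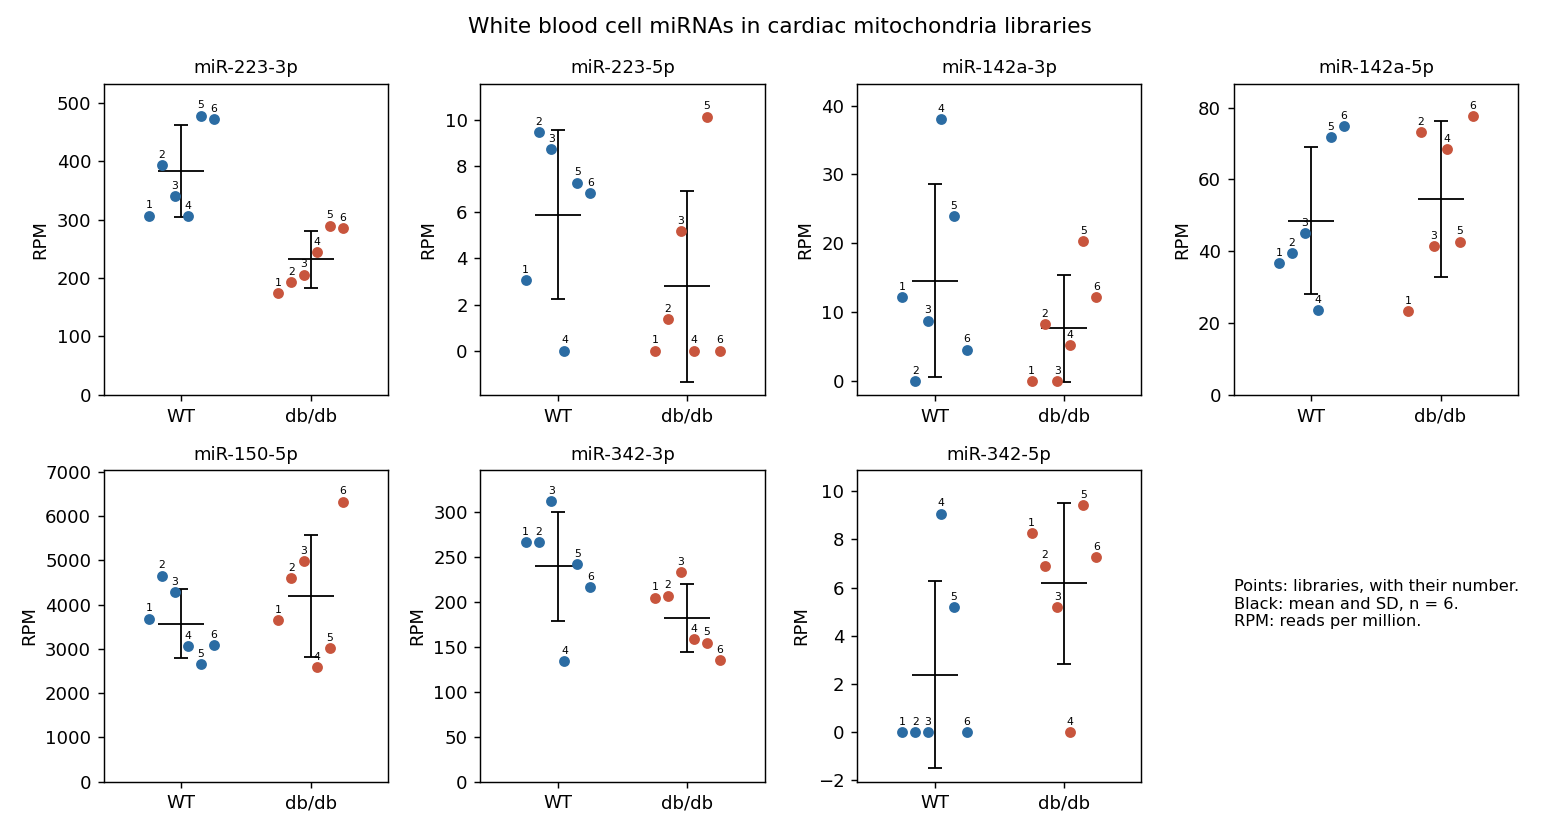
Level of each of the 7 miRNAs (vertical axis, RPM) in each WT (blue) and db/db (red) library, with the library number beside each point and the mean and SD (n = 6) in black. In miR-223-3p all db/db libraries lie between 175 and 289 RPM, below the lowest WT library at 306 RPM, and the other 6 miRNAs overlap.

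Setting db/db against WT asks which miRNAs of the mitochondrial fraction of the heart differ in this model of diabetes. miR-223-3p, the guide arm of the myeloid miRNA, had the clearest difference among the members and stood lower in db/db libraries. miR-342-3p and miR-150-5p, the other abundant members, had differences of -0.37 and 0.20 (log2 fold change), with intervals that included 0. In limma, fitted over all 646 rows averaging at least 1 RPM, 0 of the 7 members passed an adjusted p under 0.05, where 0.155% of all rows passed (1 of 646). At an unadjusted p under 0.05 there was 1 of 7, miR-223-3p, against 8.98% of all rows. edgeR on the recovered reads called 0 of 7 (0.464% of all rows) and DESeq2 called 1, miR-223-3p, of the 3 members to which it gave an adjusted p (4.71% of such rows); miR-223-5p, miR-342-5p and both arms of miR-142a had none. Of the 7 differences 4 were negative, with a median log2 fold change of -0.37, beside 338 of 646 and a median of -0.04 over all rows tested. In such bulk libraries fewer cells of a type and less RNA per cell cannot be told apart. Nor can miRNA inside mitochondria be told from blood or cytosol left in the fraction, as every library was of that fraction.

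**Figure D2:**
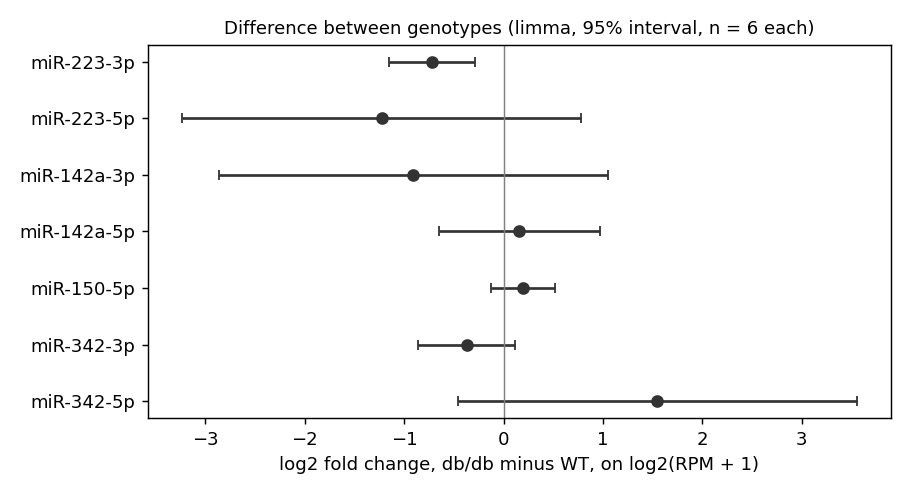
Difference between genotypes for each miRNA (horizontal axis, log2 fold change of db/db minus WT on log2(RPM + 1)), as the limma estimate with its 95% interval (n = 6 libraries per genotype). The interval of miR-223-3p, -1.16 to -0.28, leaves out 0 before adjustment over all rows, and the other 6 intervals include it.

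miR-223-3p ranged from 306 to 478 RPM in WT libraries (median 366) and from 175 to 289 RPM in db/db libraries (median 225). The groups did not overlap: the highest db/db library, number 5, lay below the lowest WT library, number 4. Non-overlap with db/db lower was seen in 4 of the 646 rows tested, or 0.619%, and the others were miR-24-3p, miR-24-2-5p and miR-434-5p. WT libraries had a mean of 383 ± 78.3 RPM and db/db ones of 232 ± 48.6 RPM (± SD, n = 6 per genotype), a ratio of 0.607. The log2 fold change was -0.72 with an SE of 0.22 (limma adjusted p = 0.109, unadjusted p = 0.00168), which ranked 10 of 646 by p. These values rest on 118 to 460 reads per library.

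The estimate for miR-223-3p kept its sign under every setting tried, from -0.85 to -0.59, but its call depended on the setting. edgeR gave -0.69 (adjusted p = 0.135) and DESeq2 gave -0.66 (adjusted p = 0.0431, over the 170 rows to which DESeq2 gave one). With WT library 4 and db/db library 6 left out limma gave -0.84 (adjusted p = 0.108). Leaving out 1 library at a time gave limma adjusted p from 0.0686 to 0.351, none of them under 0.05. Earlier work on these libraries picked out a split between numbers 1 to 3 and 4 to 6, which the labels do not name as a batch. With that split as a factor limma gave an adjusted p of 0.0480 for miR-223-3p, with 1.55% of all rows called. Since the split was picked out from these same libraries, that call is no separate support. A fit with the sample number as a block, which the labels do not tie to a shared source, also passed it, with 1.39% of all rows called.

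**Figure D3:**
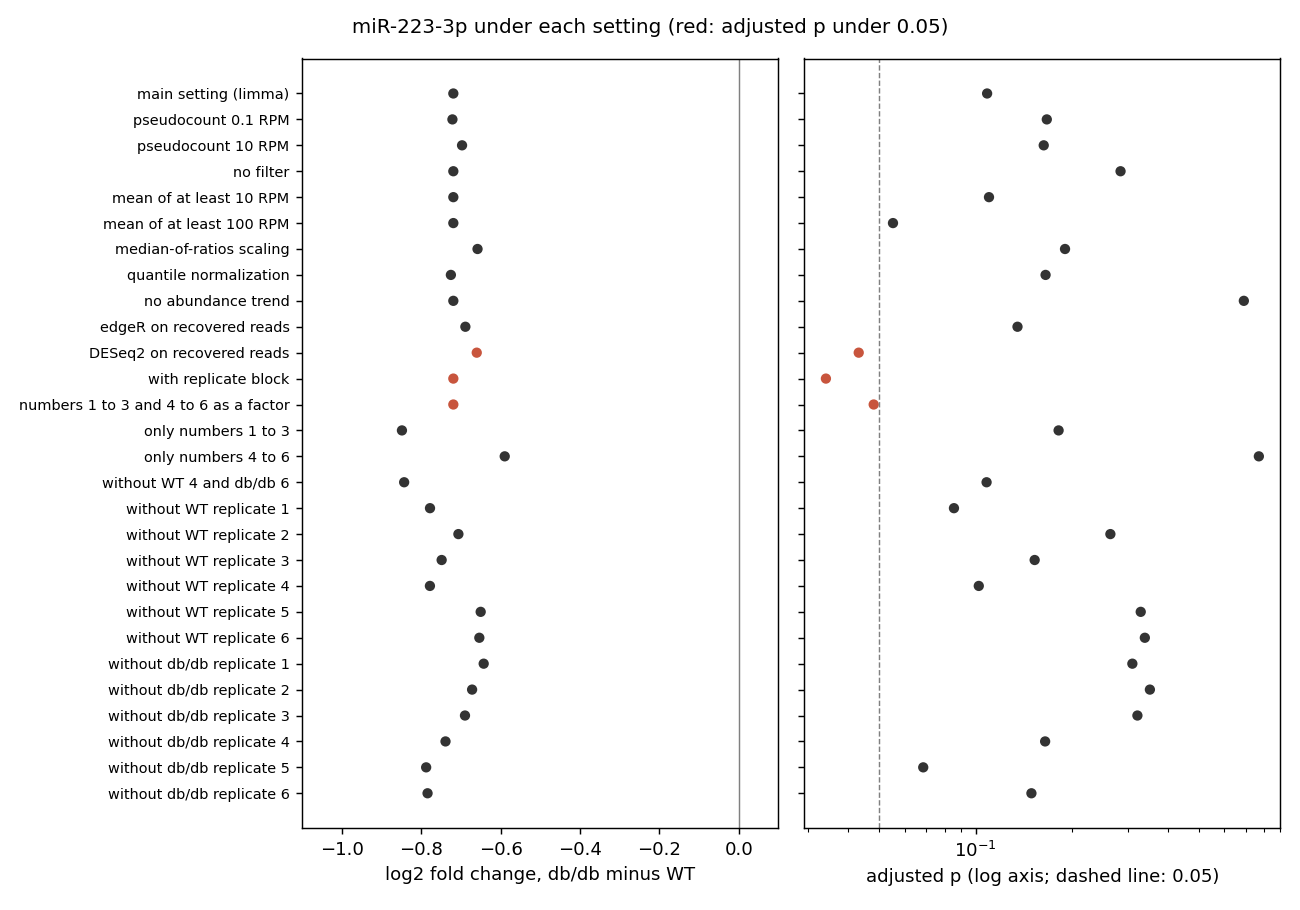
miR-223-3p under each processing setting (rows), with the log2 fold change of db/db minus WT on the left and the adjusted p on a log axis on the right, where the dashed line marks 0.05. Every estimate lies between -0.85 and -0.59, and 3 settings, drawn in red, pass the threshold. Among them is the number split as a factor, which was picked out from these same libraries.

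Because the genotypes did not overlap, miR-223-3p had to be lower in db/db libraries within each side of that split. The values by side are a description and no separate result. In numbers 1 to 3 it spanned 307 to 393 RPM in WT and 175 to 206 RPM in db/db libraries (log2 fold change -0.85, limma adjusted p = 0.182). In numbers 4 to 6 it spanned 306 to 478 RPM in WT and 244 to 289 RPM in db/db libraries (-0.59, limma adjusted p = 0.770). Each of these fits had 3 libraries against 3. Between the sides of the split, the log2 differences of 4 to 6 minus 1 to 3 ran from -0.54 for miR-342-3p to 2.15 for miR-142a-3p, with -0.38 for miR-150-5p and 0.38 for miR-223-3p (95% interval -0.03 to 0.79). None of the 7 passed for that split (limma adjusted p of 0.108 or more), where 2.63% of all rows did. At a limma unadjusted p under 0.05 there were 3 of 7, miR-150-5p, miR-342-3p and miR-142a-3p, against 10.4% of all rows. As the split was picked out from these same libraries, these counts are a description and no test of it.

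miR-223-5p, the rarer arm of the same hairpin, was near the detection floor. It had 0 to 7 reads per WT library and 0 to 14 per db/db library, and was at 0 in 1 WT and 3 db/db libraries. Finding no read still allows up to 3, which is 3.88 to 7.27 RPM in the libraries at 0, and such limits cover counting error only. WT libraries had a mean of 5.89 ± 3.65 RPM and db/db ones of 2.78 ± 4.12 RPM (± SD, n = 6 per genotype). A difference was not detectable at this depth (log2 fold change -1.22 with an SE of 1.00, and limma adjusted p = 0.717). The estimate was -2.34 with 0.1 RPM added in place of 1 RPM and -0.33 with 10 RPM added.

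miR-150-5p, abundant in lymphocytes but also studied in heart muscle, was the most abundant member in all 12 libraries. It rested on 1688 to 4179 reads in each. It ranged from 2652 to 4655 RPM in WT libraries (median 3388) and from 2589 to 6326 RPM in db/db libraries (median 4125). The db/db libraries held both the lowest value, in number 4, and the highest, in number 6, and the groups overlapped. Its mean was 3570 ± 777 RPM over WT libraries and 4196 ± 1385 RPM over db/db ones (± SD, n = 6 per genotype). The log2 fold change was 0.20 with an SE of 0.16 (limma adjusted p = 0.717) and a 95% interval of -0.13 to 0.52. With WT library 4 and db/db library 6 left out the log2 fold change was 0.03. The other arm, miR-150-3p, was low, with 13.2 ± 6.93 RPM over WT libraries and 9.13 ± 8.14 RPM over db/db ones (± SD, n = 6 per genotype).

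miR-342-3p, from the Evl intron, ranged from 134 to 312 RPM in WT libraries (median 254) and from 136 to 233 RPM in db/db libraries (median 182). The WT median was above each of the 6 db/db libraries, but WT library 4 was lower than all of them. WT libraries had a mean of 240 ± 60.6 RPM and db/db ones of 182 ± 37.9 RPM (± SD, n = 6 per genotype). The log2 fold change was -0.37 with an SE of 0.24 (limma adjusted p = 0.717), and the 95% interval ran from -0.86 to 0.12. Without WT library 4 the log2 fold change was -0.53 (limma adjusted p = 0.581). It was -0.39 in numbers 1 to 3 and -0.36 in numbers 4 to 6.

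miR-342-5p was at 0 in 4 of 6 WT libraries and in 1 of 6 db/db libraries. In reads it had 10 in all WT libraries together and 31 in all db/db libraries together, 13 of the latter in the deepest library, db/db number 5. Means were 2.38 ± 3.88 RPM for WT libraries and 6.17 ± 3.34 RPM for db/db ones (± SD, n = 6 per genotype), and the groups overlapped. The log2 fold change of 1.55, with an SE of 1.00 (limma adjusted p = 0.717), depended on the added 1 RPM: it was 3.13 with 0.1 RPM and 0.41 with 10 RPM. It was 2.94 in numbers 1 to 3, where the WT libraries had no read of it, and 0.15 in numbers 4 to 6; whether these differ was not tested.

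miR-142a-5p, made in nearly all blood cell lineages, did not differ detectably between genotypes. It ranged from 23.6 to 74.9 RPM in WT libraries (median 42.2) and from 23.4 to 77.5 RPM in db/db libraries (median 55.6), nearly the same range. Means were 48.5 ± 20.5 RPM for WT libraries and 54.5 ± 21.7 RPM for db/db ones (± SD, n = 6 per genotype), a log2 fold change of 0.16 with an SE of 0.40 (limma adjusted p = 0.890). The 95% interval of -0.65 to 0.97 reaches nearly as far down as the estimate for miR-223-3p. The sign turned to -0.023 without WT library 4, and to -0.15 when db/db library 6 was left out as well. miR-142a-3p was at 0 in 1 WT and 2 db/db libraries and reached 38.1 RPM in WT library 4 and 20.3 RPM in db/db library 5. Means were 14.6 ± 14.1 RPM for WT libraries and 7.64 ± 7.78 RPM for db/db ones (± SD, n = 6 per genotype), a log2 fold change of -0.91 with an SE of 0.98 (limma adjusted p = 0.717). That estimate was -1.45 with 0.1 RPM added and -0.40 with 10 RPM added. It was -1.55 without WT library 2 and -0.44 without db/db library 1 or db/db library 3, all 3 of which had no read of it.

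The share of the 3p arm in the reads of both arms does not depend on how a library is scaled, and it was compared by genotype in 3 hairpins. The arms of miR-223 and miR-342 were strongly one-sided. Of 2947 reads of miR-223 98.4% came from the 3p arm, and the share per library was 98.5% ± 0.923 in WT and 98.9% ± 1.47 in db/db (± SD, n = 6 per genotype; two-sided exact permutation p = 0.619, adjusted p = 0.619 over the 3 hairpins). For miR-342 the share was 98.6% ± 2.55 in WT and 96.7% ± 2.08 in db/db (± SD, n = 6 per genotype; two-sided exact permutation p = 0.188, adjusted p = 0.451). Without WT library 4, the lowest WT library, the exact permutation p for miR-342 was 0.0216 before adjustment, for a difference of -2.93 percentage points. Leaving out each library in turn gave exact permutation p up to 0.340, and the next lowest was 0.0823, without db/db library 4. Of the 41 reads of miR-342-5p, 5 were in WT library 4, and the only others from WT were 5 in WT library 5.

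miR-142a had the opposite balance, since 18.1% of its 585 reads came from the 3p arm. The share ranged from 0 to 61.8% in WT libraries (median 20.6%) and from 0 to 32.2% in db/db libraries (median 8.59%). WT library 4 was the only library in which the 3p arm was the larger, with 21 of 34 reads (61.8%, 95% Wilson interval 45.0 to 76.1%). db/db library 5, with the most reads, stood at 28 of 87 reads (32.2%, 95% Wilson interval 23.3 to 42.6%), and WT library 2 had 0 of 25 (upper limit 13.3%). These intervals cover counting error only and did not all overlap, within WT as well as within db/db libraries. The genotypes differed by -11.8 percentage points in the mean share, less than the spread between WT libraries (SD 21.8; exact permutation test, two-sided, p = 0.301, adjusted p = 0.451). WT library 4 weighed on this value: the difference was -3.92 points with it left out and -4.52 with db/db library 6 left out too. Leaving out each library in turn gave -16.3 to -3.92 points.

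**Figure D4:**
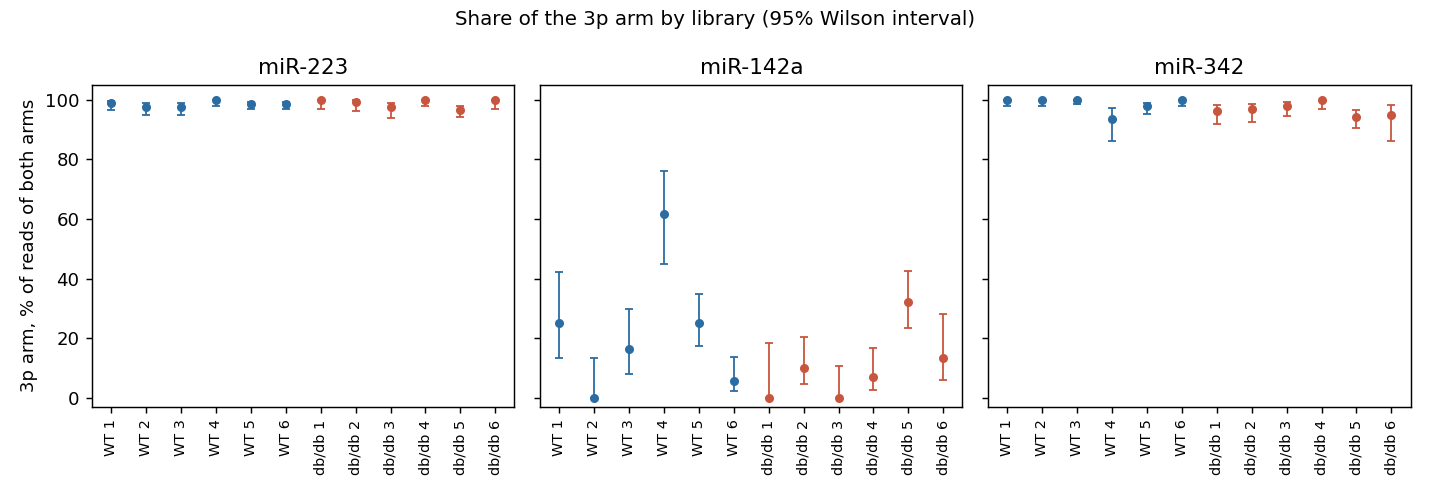
Share of the 3p arm (vertical axis, % of the reads of both arms) in each WT (blue) and db/db (red) library for 3 hairpins, with 95% Wilson intervals for counting error. miR-223 and miR-342 stay above 93% in every library, while miR-142a spans 0 to 61.8%.

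Levels relative to miR-223-3p in the same library are also free of library scaling, and 5 such ratios were computed as a description, with no test. The ratio of miR-150-5p to miR-223-3p was 5.55 to 12.6 in WT libraries (median 10.9) and 10.4 to 24.2 in db/db libraries (median 21.5). db/db libraries 4 and 5, at 10.6 and 10.4, lay within the WT range, and the other four lay above it. The ratio of miR-342-3p to miR-223-3p overlapped, at 0.438 to 0.919 in WT and 0.475 to 1.17 in db/db libraries. miR-223-3p itself was lower in all db/db libraries, so ratios over it tend to be higher there and are no separate result. How many other rows would give a ratio without overlap was not counted. Of the 5 ratios only that of the endothelial miR-126a-3p to miR-223-3p did not overlap between genotypes. It spanned 55.5 to 63.5 in WT libraries and 66.1 to 87.2 in db/db libraries. The ratios of miR-133a-3p (641 to 1199 in WT, 1036 to 2124 in db/db libraries) and of the red blood cell miRNA miR-451a (2.36 to 5.50 in WT, 1.66 to 13.0 in db/db libraries) overlapped.

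**Figure D5:**
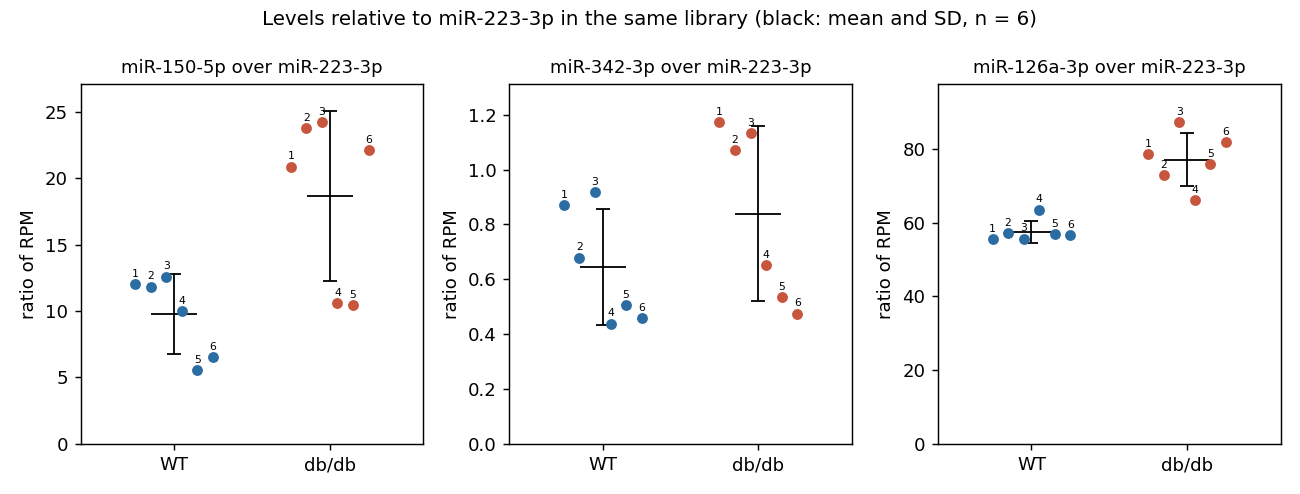
Ratio of the RPM of miR-150-5p, miR-342-3p and miR-126a-3p to that of miR-223-3p in each WT (blue) and db/db (red) library, numbered, with the mean and SD (n = 6) in black. The ratio of miR-126a-3p is narrow in WT, 55.5 to 63.5, and higher in all db/db libraries, 66.1 to 87.2. The ratios of the members overlap. miR-223-3p itself was lower in all db/db libraries, so these ratios are no separate result.

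Relations between the members were computed across the 12 libraries. Among miR-223-3p, miR-142a-3p, miR-142a-5p, miR-150-5p and miR-342-3p there were 10 pairs, and each of the 5 was also set against miR-451a, which made 15 relations on log2(RPM + 1). None passed after adjustment (permutation test, lowest adjusted p = 0.426 for Pearson's r and 0.600 for Spearman's rho). The relation with the smallest p was that of miR-142a-5p with miR-451a (r = 0.62, permutation p = 0.0284; rho = 0.61, permutation p = 0.0400). It fell to r = 0.23 without db/db libraries 1 and 6, and so rests on those samples, and r was 0.10 within WT and 0.85 within db/db libraries. miR-223-3p and miR-142a-5p, both miRNAs of myeloid cells, had r = 0.30 (permutation p = 0.336, adjusted p = 0.560; rho = 0.19, permutation p = 0.556), and -0.10 when WT library 5 and db/db library 1 were left out. Within genotypes, over 6 libraries each and not tested, r among the 10 member pairs ran from -0.72 (miR-142a-3p with miR-150-5p) to 0.90 (miR-223-3p with miR-142a-5p) in WT. In db/db it ran from -0.87 (miR-223-3p with miR-342-3p) to 0.77 (miR-223-3p with miR-142a-3p). All these values share the library totals, so they are not independent of each other.

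The rows most like each member were picked by Pearson's r over the 12 libraries from 282 named rows averaging at least 10 RPM, so these values are high by selection and are a description. Nearest to miR-223-3p were the smooth muscle miRNA miR-143-3p (r = 0.93), miR-24-3p (0.92) and miR-22-3p, a muscle miRNA (0.91). Within WT libraries alone these values were 0.86, 0.89 and 0.74, and within db/db libraries 0.89, 0.69 and 0.82. These 3 had negative log2 fold changes, -0.48, -0.36 and -0.56, and miR-22-3p was the 1 row that passed in limma. Nearest to miR-150-5p were miR-125a-5p (r = 0.93), miR-151-5p (0.92) and miR-125b-5p (0.87). miR-342-3p was nearest to miR-335-3p (0.89), miR-10b-5p (0.84) and miR-146a-5p (0.80), the last a miRNA induced by NF-kB. For the low miR-142a arms they were miR-1843a-3p (0.76), miR-125b-2-3p (0.63) and miR-322-5p (0.62) for the 5p arm and miR-29c-5p (0.82), miR-203-3p (0.58) and miR-345-3p (0.54) for the 3p arm.

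Other miRNAs known from blood and immune cells were taken from a list of 24 names, of which 21 were rows of the table and 19 were tested. None passed in limma; at an unadjusted p under 0.05 there were 3 lower and 2 higher in db/db libraries, where 8.98% of all rows passed that threshold. Of the 19 differences 10 were negative (median -0.18), beside 52.3% of all rows. The 3 with the smallest p were miR-92a-3p, a product of the miR-17-92 cluster (0.51 ± 0.15), miR-24-3p (-0.36 ± 0.12) and miR-21a-5p, which responds to stress (-0.45 ± 0.15; log2 fold change, SE; limma adjusted p of 0.109, 0.198 and 0.198). Most of these miRNAs are also made in heart muscle, vessels or fibroblasts. miR-146a-5p, which damps innate immune signalling, had means of 672 ± 120 RPM for WT libraries and 489 ± 114 RPM for db/db ones (± SD, n = 6 per genotype; limma adjusted p = 0.504). miR-155-5p, a miRNA of activated lymphocytes and macrophages, had means of 70.7 ± 23.9 RPM for WT libraries and 83.6 ± 20.5 RPM for db/db ones (± SD, n = 6 per genotype; limma adjusted p = 0.733). miR-147-3p was listed at 0 in every library.

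Markers of other cells are given beside miR-223-3p, and their part in its lower level was not tested; none of their rows passed in limma. The red blood cell list (5 tested, 4 positive) summed to 18648 to 41659 RPM in WT and 35661 to 58147 RPM in db/db libraries, mostly miR-486a-5p and miR-486b-5p, which muscle also makes. Those 2 rows were near copies (means of 18574 and 18941 RPM, log2 fold change 0.53 in both). They are therefore not 2 separate markers in the count or in the sum. miR-451a, the defining miRNA of red blood cells, was above 0 in every library: it spanned 850 to 1685 RPM over WT libraries and 290 to 3721 RPM over db/db ones. The endothelial pair, both negative, summed to 18852 to 29569 RPM in WT and 15588 to 25095 RPM in db/db libraries. The fibroblast and smooth muscle list (4 tested, 2 negative) summed to 33026 to 46234 RPM in WT and 23978 to 38345 RPM in db/db libraries. The heart muscle list (4 tested, 3 negative) summed to 366749 to 420533 RPM in WT and 337987 to 439537 RPM in db/db libraries. The ranges of all 4 sums overlapped between the genotypes, but the sums hide differences in single rows. miR-143-3p (-0.48, limma unadjusted p = 0.000538) and miR-486a-5p (0.53, limma unadjusted p = 0.000511) had smaller p than miR-223-3p. At a limma unadjusted p under 0.05, which 8.98% of all rows passed, miR-126a-3p, miR-145a-5p and miR-208a-3p were lower and miR-214-3p higher in db/db libraries.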

How the data were processed

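Small RNA was sequenced from mitochondria of 6 WT and 6 db/db heart samples. The authors deposited 1 table under the name TPM, but its values are RPM: they are whole multiples of 1 read (100% within 0.01 of a read) and carry no length term, so read counts were recovered. The submitters' processing notes name GRCm39 as build; the sources used here do not give the aligner or the miRNA annotation. All 66 pairs of libraries differed by more than sampling noise (chi-square of at least 18.6 per degree of freedom).

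The main test was limma 3.58.1 (R 4.3.3) run two-sided on log2(RPM + 1) of the 646 rows averaging at least 1 RPM, its variance following abundance, with Benjamini-Hochberg adjustment over all of them. As alternatives, edgeR 4.0.16 (TMM, quasi-likelihood test) and DESeq2 1.42.0 used the recovered reads; others changed the scaling, filter, pseudocount or trend, added the replicate block or the number split, or left out each library. The scripts were tested on simulated data. Arm shares were compared by exact permutation over 924 assignments, and correlations by 100000 resamples. Python 3.11.15, scipy 1.17.1 and matplotlib 3.10.9 were used.

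The members, the lists of miRNAs, the number split and the pair of libraries left out were chosen with earlier results of these data known. Named rows were the 7 members, the 3 rows most like each member that averaged at least 10 RPM, the marker miRNAs, and list members called or, with none called, the 3 with the smallest p. miR-146a-5p, miR-155-5p, miR-147-3p, miR-150-3p and the non-overlapping rows were named after their values were seen.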

Additional observations from a re-analysis of the deposited data

Results flagged for a closer look

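Each genotype's 6 values of each member, arm share and read total, 22 groups in all, were checked for a library set apart from the rest. By chance about 1 group in 20 would be picked out, or 1.1 of these, and 2 were. The 3p arm share of miR-342 in WT library 4 was 93.7%, with the next lowest WT library at 97.9%, a gap of 0.668 of the range; it rests on 79 reads. The recovered reads of db/db library 5 were 1382046, with the next highest at 773784, a gap of 0.628 of the range.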

How the results depend on the processing

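Among all rows tested, 1 was called. That count became 0 in limma for added values of 0.1 and 10 RPM, for all rows unfiltered, for cutoffs of 10 and 100 RPM on the mean, after quantile normalization, with the trend off, and when WT 4 and db/db 6 were both dropped. Scaling by median of ratios gave 2, the number split as a factor 10, and numbers 4 to 6 alone 3. The recovered reads gave 3 in edgeR and 8 in DESeq2. With a single library dropped the count ran from 0 to 7: it was 6 for WT 1 and for WT 3, 3 for db/db 4, 7 for db/db 5, 1 for db/db 6 and 0 for each of the rest. What causes these shifts was not tested. Of the members 0 were called under these settings, except 1, miR-223-3p, by DESeq2, with the number split and with the replicate block. The replicate block, which pairs libraries by number, called 9 rows and gave miR-223-3p an adjusted p of 0.0340 in limma. The labels do not say that a number marks a shared source, and same-numbered libraries did not deviate together: their correlations ran from -0.05 to 0.12, and 2 of 12 libraries correlated best with their own number. No other call on a member changed with the block.

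miR-142a-5p changed sign, from 0.16 to -0.15 without the pair WT 4 and db/db 6, and it ran from -0.023 (WT 4 dropped) to 0.37 with a single library dropped. The other 6 members kept their sign in every limma, edgeR and DESeq2 setting that tested them. The arm share of miR-342 differed by -2.58 percentage points with that pair dropped (exact permutation p = 0.0476) and by -2.93 to -1.47 with a single library dropped, beside -1.94 with all. The correlation of miR-223-3p with miR-451a (0.15) was -0.17 by rank and -0.46 without db/db 1 and 6. Without 2 libraries the correlations of miR-142a-5p with miR-223-3p, miR-142a-3p and miR-150-5p turned to -0.10, -0.21 and -0.13. Depth limits the arms near the floor, miR-223-5p, miR-342-5p and miR-142a-3p, which had 0 to 28 reads per library.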
